A study of Rattus norvegicus with 6 samples.

Results

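The circadian clock genes of the rat kidney were followed in 6 animals. They were 10 genes named by symbol, 10 of the 17051 genes listed in the expression tables: Arntl, Clock, Npas2, Per1, Per2, Per3, Cry1, Cry2, Dbp and Nr1d1. All 10 reached the minimum of 30 counts in at least 1 rat, which 11553 of the listed genes did. The rats were male Sprague Dawley rats that were randomized by diet. The AL group (rats 61, 71 and 88) had standard laboratory chow ad libitum. The HD group (rats 64, 67 and 69) had a pre-hyperammonemic diet, in which an amino acid mixture was added to standard chow powder. Poly(A)-selected RNA of kidney tissue was sequenced for each rat as a library of its own. Both groups were anesthetized with isoflurane for surgery and flux measurements, and the clock time at which each kidney was taken is not given in the sources used here. Tissue was bulk, so fewer cells of a type and less RNA per cell cannot be told apart.

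The mammalian clock is a feedback loop of transcription that runs in most cells, those of the nephron included. BMAL1, the product of Arntl, pairs with CLOCK or NPAS2 and activates the Per and Cry genes, Dbp and Nr1d1 through E-boxes. PER and CRY proteins then inhibit their own activators, and NR1D1 (REV-ERB alpha) represses Arntl through ROR elements. In rhythmic tissues Arntl and the E-box targets therefore peak at different times of day, and in the kidney clock-controlled genes include transporters of sodium and water.

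The members differ in which of these DNA elements lie in the 250 bases before their transcription start. RefSeq sequences on build GRCr8 were found for 9 of the 10 members (Cry1 had no entry), with 11 start sites in all, and Arntl appears there under its other name Bmal1. The motifs searched on both strands were the E-box CACGTG, the related E-prime-box CACGTT, the ROR element TAGGTCA or TGGGTCA and the D-box TTANGTAA, the site bound by DBP. The E-prime-box was found in 3 of the 11 windows and each of the other motifs in 1. Among all 33469 promoters of the same length in the table, 5.59% held the E-box, 4.07% the E-prime-box, 5.62% the ROR element and 2.04% the D-box. The windows of Per1, Per3, Dbp, Npas2 and Clock held none of the motifs, although Per1, Per3 and Dbp ran against Arntl across the rats as Per2 and Nr1d1 did. Those below are shown as examples with a match: Arntl, which holds the ROR element, and Per2 and Nr1d1, which hold the D-box, the E-box and E-prime-boxes. They read from 5′ to 3′ on the strand of the gene, with each motif in capitals.
Arntl (chr1:176766078-176766327, + strand): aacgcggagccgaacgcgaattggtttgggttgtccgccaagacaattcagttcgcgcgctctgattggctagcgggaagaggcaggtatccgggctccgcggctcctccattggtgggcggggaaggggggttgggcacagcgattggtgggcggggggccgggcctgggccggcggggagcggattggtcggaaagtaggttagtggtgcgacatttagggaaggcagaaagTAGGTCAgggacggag
Per2 (chr9:99496994-99497243, - strand): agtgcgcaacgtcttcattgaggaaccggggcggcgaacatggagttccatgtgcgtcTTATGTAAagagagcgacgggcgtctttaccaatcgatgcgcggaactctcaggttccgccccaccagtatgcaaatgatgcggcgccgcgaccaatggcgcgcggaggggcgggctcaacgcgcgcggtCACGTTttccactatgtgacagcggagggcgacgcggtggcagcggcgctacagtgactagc
Nr1d1, upstream start (chr10:84231813-84232062, - strand): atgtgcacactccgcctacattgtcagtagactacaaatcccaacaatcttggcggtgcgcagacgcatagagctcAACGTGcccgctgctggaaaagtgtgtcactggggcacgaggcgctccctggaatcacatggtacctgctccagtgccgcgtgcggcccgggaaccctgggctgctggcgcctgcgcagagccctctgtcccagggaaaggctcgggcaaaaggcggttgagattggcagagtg
Nr1d1, downstream start (chr10:84229455-84229704, - strand): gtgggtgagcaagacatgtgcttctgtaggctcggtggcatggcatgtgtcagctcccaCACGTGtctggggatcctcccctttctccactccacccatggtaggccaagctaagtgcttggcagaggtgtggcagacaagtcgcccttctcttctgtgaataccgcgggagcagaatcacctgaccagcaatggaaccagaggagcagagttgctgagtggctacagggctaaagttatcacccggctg
The capitals in Arntl are a ROR element that begins 16 bases before the start. In Per2 they are a D-box 192 bases and an E-prime-box 62 bases before the start. The upstream start of Nr1d1 had an E-prime-box on the opposite strand (AACGTG), and the downstream start had an E-box. A match is a description of the letters and not a site of binding, and a window without a match says nothing about sites elsewhere in the gene.

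The libraries held between 12499945 and 30466461 estimated counts, a ratio of 2.44, with rat 69 the deepest. The 5 markers of the proximal tubule summed to 7221 to 8610 CPM in the AL group and 9653 to 11112 CPM in the HD group (CPM are counts scaled to library size by edgeR's TMM method, so that rats can be compared gene by gene). Those of the adrenal cortex summed to at most 2.14 CPM. Podocyte markers (5 genes) summed to 50.3 to 118 CPM in the AL group and 172 to 366 CPM in the HD group. The sum for the distal convoluted tubule was 18.1 to 27.5 CPM and 51.8 to 288 CPM. Nearly all of it was Slc12a3, since Pvalb had at most 2 counts in a rat and Trpm6 was not listed. The sums of proximal tubule, podocyte and distal convoluted tubule markers did not overlap between the diets. Among single markers the groups did not overlap in 3 of the 5 of the proximal tubule and 3 of the 5 of podocytes, beside 14.3% of all tested genes. They overlapped in Lrp2, Slc5a2, Podxl and Synpo. The part of these cell types in the results below was not tested.

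Across genes, levels were compared in TPM, which accounts for transcript length. Dbp was the most abundant member (mean 123 ± 82.8 TPM, SD, n = 6), followed by Nr1d1 (66.2 ± 26.1) and Per1 (63.3 ± 22.3). Dbp was above Nr1d1 in 5 of the 6 rats, whereas Nr1d1 was above Per1 in only 3, so these last 2 genes were not separated. Per1 exceeded Per2 (14.5 ± 6.09 TPM) in all 6 rats. Per2, Arntl (13.0 ± 7.10 TPM), Per3 (8.97 ± 4.68), Cry2 (7.67 ± 2.81) and Cry1 (5.11 ± 0.724) formed a middle range in which each gene was above the next in 3 or 4 rats. Cry1 lay above Clock (2.45 ± 0.969 TPM) in all 6 rats, and Clock was above Npas2 (1.99 ± 1.94) in 4. By mean level the least abundant members were thus both partners of BMAL1, although in rat 71 Npas2 (5.93 TPM) was above Cry1 (5.16 TPM). Clock rested on 28 to 117 counts per rat. A count of 28 has an exact 95% Poisson interval of 18.6 to 40.5, which covers counting error only.

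No difference between the diets was detected in any member. With edgeR's quasi-likelihood test over all 11553 tested genes, 0 of the 10 members had an adjusted p of at most 0.05 (adjusted p from 0.534 to 0.991), against 0% of all tested genes. At an unadjusted p below 0.05 the test gave 0 members, where 10.6% of all tested genes were found. DESeq2 placed 0 members past its adjusted threshold, against 1.58% of all tested genes, and 1 member, Npas2, at an unadjusted p below 0.05, where it placed 1325 of the 11553 genes. The AL and HD rats overlapped in all 10 members, and the groups did not overlap in 14.3% of all tested genes. On the log2 scale the HD group minus the AL group (log2 difference hereafter) was above 0 in 3 members and below 0 in 7. Its median was -0.15 beside 0.0067 over all tested genes. The SE printed with a log2 difference was derived from edgeR's test, as the size of the difference over the square root of the F statistic. Exact two-sided permutation p values were between 0.4 and 0.9, in a design of 3 against 3 that cannot go below 0.1.

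**Figure D1:**
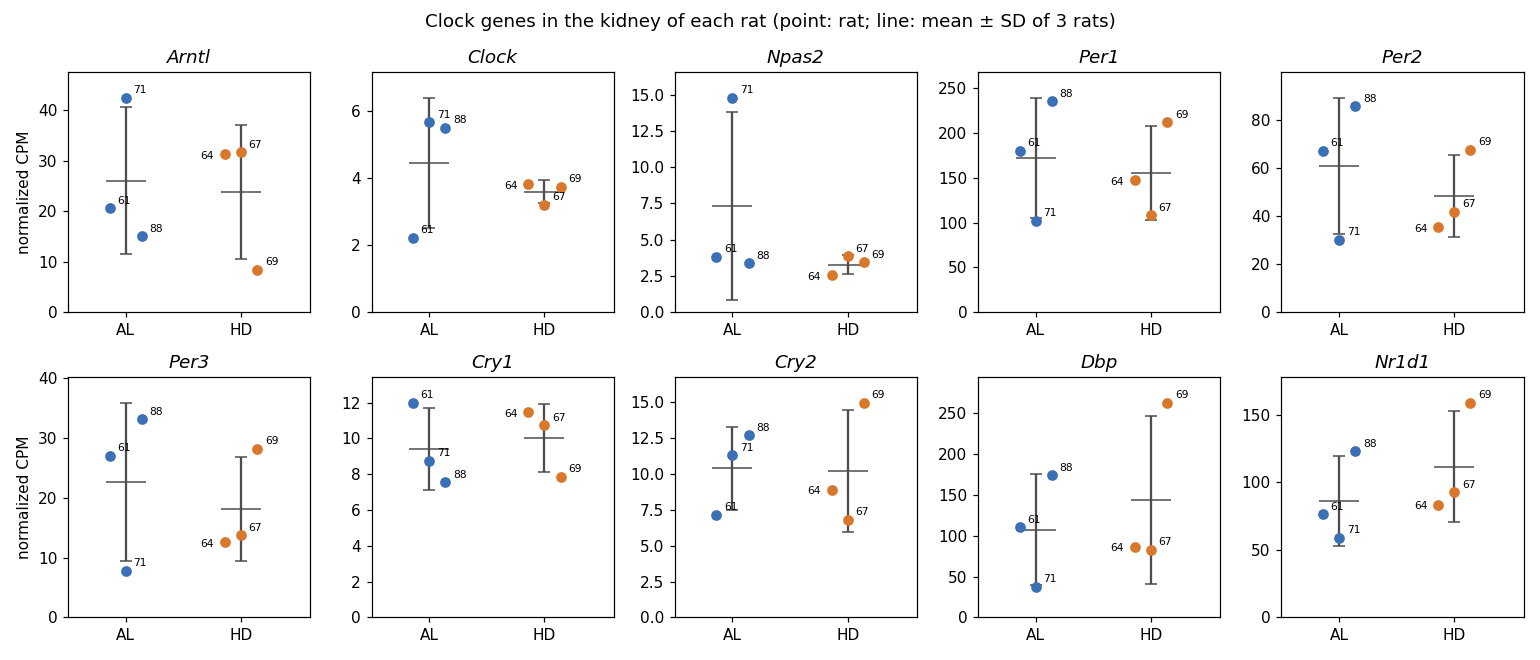
Level of each clock gene in each rat, in normalized CPM on axes that start at 0, with AL rats in blue and HD rats in orange and rat numbers beside the points. Grey lines give the mean and SD of 3 rats, and in all 10 genes the points of both groups overlap. Rats 71 and 69 are the 2 ends in Arntl, Dbp and Nr1d1.

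The activators of the loop come first. Arntl encodes BMAL1, the factor without which the loop stops, and has 21 exons on chromosome 1 of rn5 (185007568 to 185105413). Its level was 20.6, 42.5 and 15.1 CPM in AL rats 61, 71 and 88, and 31.3, 31.7 and 8.44 CPM in HD rats 64, 67 and 69. The highest rat was an AL rat and the lowest an HD rat, and the other 4 lay between them in mixed order. The AL mean was 26.1 ± 14.5 CPM and the HD mean 23.8 ± 13.3 CPM (SD, n = 3 each), and the highest rat stood 5.04-fold above the lowest. Its log2 difference of -0.15 (SE 0.55, edgeR adjusted p = 0.962) became 0.41 without rat 71 and 0.27 without rat 69.

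Clock, which encodes the usual partner of BMAL1, has 20 exons on chromosome 14 (34242961 to 34282766). It was measured at 2.22, 5.65 and 5.49 CPM in rats 61, 71 and 88 and at 3.82, 3.20 and 3.74 CPM in rats 64, 67 and 69. The HD rats lay close together inside the span of the AL rats, in which rat 61 was the low one. The log2 difference was -0.32 (SE 0.38, edgeR adjusted p = 0.832). Without rat 61 it was -0.64 with an unadjusted edgeR p of 0.0394, and 1722 of 11550 genes were below 0.05 in that fit.

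Npas2, a paralog of Clock that can take its place, spans 45590021 to 45769792 on chromosome 9 with 21 exons. Its level was 3.81, 14.8 and 3.37 CPM in rats 61, 71 and 88 and 2.54, 3.85 and 3.45 CPM in rats 64, 67 and 69. Rat 71 stood alone, and the other 5 rats of both groups lay between 2.54 and 3.85 CPM. The log2 difference of -1.16 (SE 0.58, edgeR adjusted p = 0.534) was the greatest in size among the members. It was -0.12 without rat 71.

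Among the Period genes, which encode inhibitory subunits of the loop, rat 88 was the highest and rat 71 the lowest each time. Rats 69 and 61 came next after rat 88, while rat 64 was above rat 67 in Per1 and below it in Per2 and Per3. Per1, which also responds to glucocorticoids, has 22 exons on chromosome 10 (55430184 to 55439080). It was at 180, 102 and 235 CPM in rats 61, 71 and 88 and at 147, 108 and 212 CPM in rats 64, 67 and 69. Rats 88 and 69 were the highest and rats 71 and 67 the lowest, a pair from different groups at each end. Between the diets its log2 difference was -0.15 (SE 0.34, edgeR adjusted p = 0.931).

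Per2, whose protein acts with the cryptochromes, has 23 exons on the minus strand of chromosome 9 (98231204 to 98273371). It was at 67.1, 30.1 and 85.6 CPM in rats 61, 71 and 88 and at 35.4, 41.6 and 67.6 CPM in rats 64, 67 and 69. Rat 88 was again the highest and rat 71 the lowest, and the log2 difference was -0.33 (SE 0.39, edgeR adjusted p = 0.833).

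Per3, a Period paralog that is less needed for the rhythm itself, has 21 exons on the minus strand of chromosome 5 (171665221 to 171700125). Its level was 27.0, 7.76 and 33.1 CPM in rats 61, 71 and 88 and 12.6, 13.7 and 28.2 CPM in rats 64, 67 and 69. The rats fell in the same order as for Per2, and the highest was 4.26-fold above the lowest, both of them AL rats. HD minus AL was -0.30 (SE 0.53, edgeR adjusted p = 0.896).

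The cryptochromes, the other inhibitors, had the 2 narrowest spans of the members. Cry1, with 13 exons on chromosome 7 (24683890 to 24784329), was at 12.0, 8.75 and 7.54 CPM in rats 61, 71 and 88 and at 11.5, 10.7 and 7.86 CPM in rats 64, 67 and 69. Its highest rat, rat 61, was 1.59-fold above its lowest, rat 88, and the log2 difference was 0.09 (SE 0.25, edgeR adjusted p = 0.949). Cry2, with 12 exons on the minus strand of chromosome 3 (88020048 to 88048168), was at 7.14, 11.3 and 12.7 CPM in rats 61, 71 and 88 and at 8.91, 6.79 and 14.95 CPM in rats 64, 67 and 69. Its span was 2.20-fold, and the log2 difference was -0.02 (SE 0.34, edgeR adjusted p = 0.991).

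Rats 71, 88 and 69 had the 3 highest levels of Cry2 and the 3 lowest of Cry1. The same 3 rats had the highest summed level of the 4 endothelial markers, which was 75.3, 186 and 199 CPM in rats 61, 71 and 88 and 61.4, 99.6 and 204 CPM in rats 64, 67 and 69, and none of the 4 was at 0. They also had the highest sums of the 5 leukocyte markers (241 to 367 CPM, against 135 to 222 CPM in the other rats), of which only Cd3e was at 0, in rats 64 and 67. Most of that sum was Cd74, in which rat 61 (197 CPM) lay above rat 88 (193 CPM). Rat 61 also lay above rat 69 in Ptprc (7.14 against 4.95 CPM) and above rats 88 and 69 in Cd3e. Only Cd68 and Csf1r were each highest in rats 71, 88 and 69. The part of these cell types in the levels of Cry1 and Cry2 was not tested.

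Dbp and Nr1d1 are direct readouts of BMAL1 activity. Dbp, a PAR bZIP factor that passes the rhythm on to metabolic genes, has 4 exons on chromosome 1 (102766762 to 102771674). It was measured at 111, 37.8 and 174 CPM in AL rats 61, 71 and 88 and at 86.7, 83.0 and 263 CPM in HD rats 64, 67 and 69. Rat 69 was the highest and rat 71 the lowest, a 6.95-fold span. Within a single diet the span was 4.61-fold in the AL group and 3.17-fold in the HD group. The AL mean was 107 ± 68.2 CPM and the HD mean 144 ± 103 CPM (SD, n = 3 each). The log2 difference of 0.43 (SE 0.62, edgeR adjusted p = 0.869) turned to -0.34 without rat 69.

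Nr1d1, the heme-binding receptor that represses Arntl, has 8 exons on the minus strand of chromosome 10 (86479868 to 86486808). It was at 76.3, 59.0 and 123 CPM in rats 61, 71 and 88 and at 83.5, 92.7 and 159 CPM in rats 64, 67 and 69. Rats 69 and 88 were the highest, as for Dbp, and rat 71 the lowest. Its log2 difference was 0.38 (SE 0.33, edgeR adjusted p = 0.752). Without rat 88 it was 0.73, with an unadjusted edgeR p of 0.0477, and 606 of 11531 genes were below 0.05 in that fit. A second, shorter transcript took between 0% and 8.97% of the Nr1d1 counts in a rat. An exon of Nr1d1 shares 263 bases with an exon of Thra, a thyroid hormone receptor gene on the opposite strand, and reads of the shared bases cannot be told apart, since the library kit did not record strand. The other 9 members shared no exon bases with another listed gene.

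In 9 of the 10 members, all but Npas2, the SD of the log2 level within groups was greater than the difference between the groups. This SD was 1.04 for Dbp, 0.92 for Arntl, 0.89 for Per3 and 0.80 for Npas2, where the median of all tested genes was 0.218. A larger SD was found in 1.50% of all tested genes for Dbp, 2.35% for Arntl, 2.57% for Per3 and 3.87% for Npas2. For Per2, Per1, Nr1d1, Cry2 and Clock the share was between 7.66% and 15.4%, and for Cry1 it was 33.1%. Npas2 owed its place to rat 71. For Dbp and Arntl the rats were spread over the whole range. For Per3 they lay either at 7.76 to 13.7 CPM or at 27.0 to 33.1 CPM. The spread of these 3 genes was found in both groups.

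To see how this variation was shared, the 45 pairs of members were correlated over the 6 rats in log2 of CPM plus 0.5. All values of a rat come from a single library and share its depth and its normalization. Arntl and Dbp ran in opposite order in every rat (Pearson's r = -0.96, exact permutation p = 0.00139, adjusted p = 0.0313 over the 45 pairs). Spearman's rho was -1 (exact permutation p = 0.00278, adjusted p = 0.0625). The relation was r = -0.90 without rats 69 and 88, those farthest from the median of Arntl, and r = -0.97 after the mean of each diet group was subtracted. Expressed as a ratio of TPM, Arntl to Dbp was 0.100, 0.604 and 0.0465 in rats 61, 71 and 88 and 0.194, 0.205 and 0.0172 in rats 64, 67 and 69. The ratio spanned 35.1-fold, and its highest and lowest values came from different diets.

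**Figure D2:**
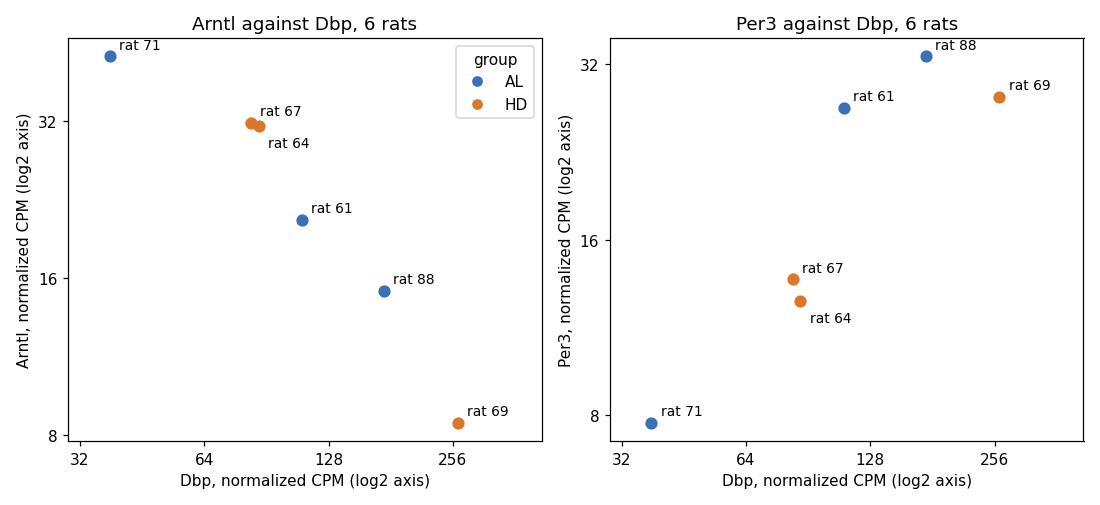
Arntl (left) and Per3 (right) against Dbp, each point a rat, AL in blue and HD in orange, in normalized CPM on log2 axes. Arntl goes from 42.5 to 8.44 CPM as Dbp goes from 37.8 to 263 CPM, while Per3 is lowest in rat 71 and high in rats 61, 88 and 69, with both diets mixed along each trend.

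The only other pair past the adjusted threshold was Per2 with Per3 (r = 0.99, exact permutation p = 0.00139, adjusted p = 0.0313). Its rho was 1 (exact permutation p = 0.00278, adjusted p = 0.0625), and r was 0.99 without rats 71 and 88. An exact test over the 720 pairings of 6 rats cannot give p below 0.00139. In TPM neither pair passed the adjusted threshold (exact permutation, adjusted p = 0.125 for both), with r = -0.98 for Arntl with Dbp and r = 0.98 for Per2 with Per3. Scaling by library size alone also left 0 pairs past it (exact permutation, adjusted p = 0.0625 for Arntl with Dbp and 0.125 for Per2 with Per3).

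The Period genes, Dbp and Nr1d1 varied together from rat to rat. All 10 pairs among Per1, Per2, Per3, Dbp and Nr1d1 had r above 0, from 0.71 to 0.99 with a median of 0.89, and 7 of the 10 had an unadjusted exact permutation p below 0.05. Without the 2 rats farthest from the median of the first gene of a pair, r in these pairs was between 0.42 and 0.99. Against these 5 genes Arntl had r between -0.96 and -0.84. Without rats 69 and 88 it was between -0.996 and -0.89 for Per1, Per2, Per3 and Dbp, and -0.44 for Nr1d1. Over the 15 pairs of an activator with 1 of these 5 genes, which leave out the cryptochromes, 14 were below 0, with a median of -0.61. Of the 15, 5 had an unadjusted exact permutation p below 0.05. All 5 of these involved Arntl. Npas2 had r between -0.71 and -0.51 with the 5 genes, and between -0.87 and -0.74 without rats 64 and 71, while Clock had r between -0.28 and 0.02. Without rats 61 and 71 all 5 values of Clock were above 0, from 0.31 for Nr1d1 to 0.80 for Per1, so its sign rested on those rats. The 3 pairs among the activators had r from 0.11 to 0.50, and 0 had an unadjusted exact permutation p below 0.05. These values rested on few rats, since r of Arntl with Clock went from 0.11 to 0.97 without rats 69 and 88, and r of Clock with Npas2 from 0.46 to -0.15 without rats 61 and 71.

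**Figure D3:**
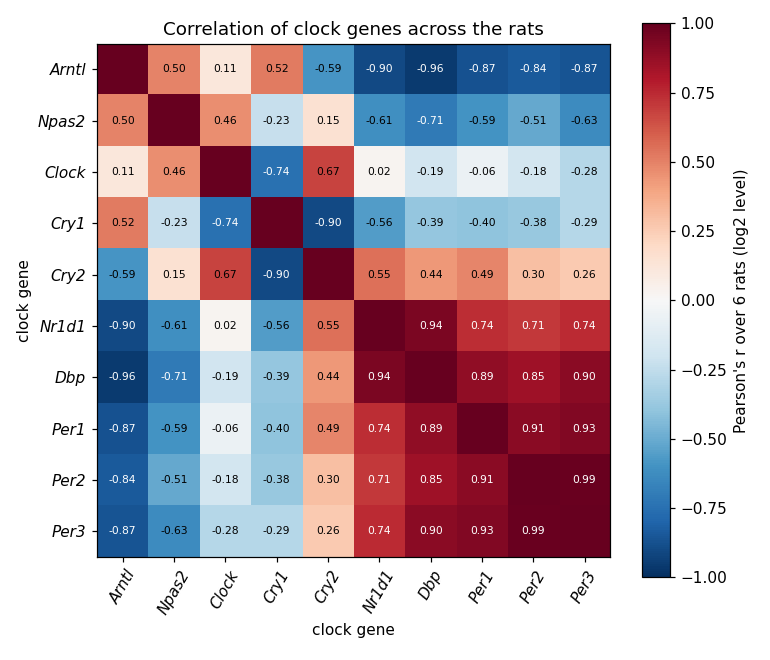
Pearson's r between clock genes over 6 rats on log2 levels, from -1 (blue) to 1 (red). Nr1d1, Dbp, Per1, Per2 and Per3 form a block of values from 0.71 to 0.99, and their column against Arntl runs from -0.96 to -0.84.

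Cry1 and Cry2 belonged to neither side. They ran against each other (r = -0.90, exact permutation p = 0.0319, adjusted p = 0.120), with rho = -0.77 (exact permutation p = 0.103, adjusted p = 0.308) and r = -0.88 without rats 61 and 88. Cry1 had r between -0.56 and -0.29 with the 5 genes Per1, Per2, Per3, Dbp and Nr1d1, and Cry2 between 0.26 and 0.55. None of these 10 pairs had an unadjusted exact permutation p below 0.05. With the activators the signs were mixed. For Arntl, Clock and Npas2, r was 0.52, -0.74 and -0.23 with Cry1 and -0.59, 0.67 and 0.15 with Cry2.

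A contrast of the members set the rats in order. It was the mean deviation of Arntl, Clock and Npas2 from their own means over the 6 rats, less the same mean over Per1, Per2, Per3, Dbp and Nr1d1, on the log2 scale. The contrast was -0.50, 1.96 and -0.79 in AL rats 61, 71 and 88 and 0.25, 0.35 and -1.27 in HD rats 64, 67 and 69. Rat 71 had the highest value, rats 69 and 88 had the lowest, and rats 67, 64 and 61 lay between them. In rat 61 Arntl (-0.09) and Dbp (0.07) were near their own means and Nr1d1 was below its mean (-0.30). Its value below 0 came with Clock at -0.68, on 28 counts, and with Per2 and Per3 at 0.40 and 0.57. The mean was 0.22 ± 1.51 over the AL rats and -0.22 ± 0.91 over the HD rats (SD, n = 3 each), so the group difference was smaller than the spread within either group. Total count had r = 0.50 with Dbp (exact permutation p = 0.317) and rho = 0.14 (exact permutation p = 0.803). Rat 69, at one end, was the deepest library, while rat 71, at the other, held 16455405 counts and lay between rats 88 and 67 in depth.

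**Figure D4:**
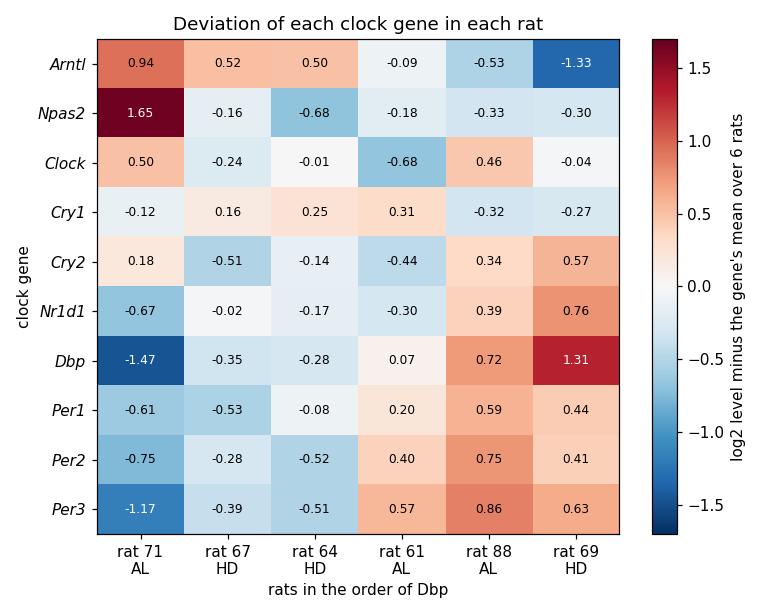
Deviation of each clock gene (rows) in each rat (columns, ordered by Dbp) from the gene's mean over 6 rats, on the log2 scale, with red above and blue below the mean. Arntl passes from 0.94 in rat 71 to -1.33 in rat 69 while Dbp passes from -1.47 to 1.31, and rats of both diets lie on each side of the middle of the order.

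Other genes of the clock pathway were read from a list of 21 genes, of which 16 were listed in the tables and 14 tested. Of these, 6 were higher and 8 lower in the HD group (median log2 difference -0.04), and 0 had an adjusted p of at most 0.05 in edgeR (adjusted p from 0.472 to 0.988). None had an unadjusted p below 0.05 in edgeR, and 0 passed the adjusted threshold in DESeq2. The groups did not overlap in 2 of the 14, Rora and Btrc, which are named here after their values were seen, beside 14.3% of all tested genes. The nearest to the threshold was Bhlhe40 (DEC1), an E-box repressor, with 109, 96.1 and 112 CPM in rats 61, 71 and 88 and 149, 106 and 253 CPM in rats 64, 67 and 69. Rat 67 lay among the AL rats, and the log2 difference was 0.68 (SE 0.29, edgeR adjusted p = 0.472). Nfil3, which binds D-boxes as a repressor, had a log2 difference of -0.37 (SE 0.24, edgeR adjusted p = 0.643).

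Several of these genes had the profile of Dbp. Likeness was measured as Pearson's r with Dbp over the 6 rats among 9702 other genes with at least 30 counts in every rat. Tef, a PAR bZIP paralog of Dbp, was at 182, 117 and 298 CPM in rats 61, 71 and 88 and at 141, 130 and 307 CPM in rats 64, 67 and 69, the same low and high rats as Dbp. Its r was 0.93, place 24 of 9702. Wee1, a cell cycle kinase known as a clock target, had r = 0.95 (place 16), and Usp2, a clock-controlled deubiquitinase, had r = 0.91 (place 37). Nr1d2, the paralog of Nr1d1, was at 20.2, 16.8 and 30.6 CPM in the AL rats and 17.6, 15.6 and 26.7 CPM in the HD rats, with r = 0.82 (place 127). By the same measure Nr1d1 stood at place 21, Per3 at 45, Per1 at 59 and Per2 at 90, and Arntl at place 8 from the bottom. Nampt, the clock-controlled enzyme of NAD salvage, had r = 0.78 in spite of a span of only 1.25-fold. Rora, Nfil3 and Timeless had r between -0.26 and 0.07 and did not follow Dbp.

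The genes most like Dbp were Coq10b (r = 0.99), Mknk2 (0.98), Sugp1 (0.98), Snrnp200 (0.98) and Tmem66 (0.97), and the least like were Prkci (-0.99), LOC288978 (-0.99), Birc6 (-0.98), Prim1 (-0.98) and Rimbp2 (-0.98). Coq10b, which encodes a coenzyme Q binding protein, was at 155, 82.6 and 186 CPM in rats 61, 71 and 88 and at 131, 115 and 226 CPM in rats 64, 67 and 69, the widest span of these 10 genes at 2.74-fold. Snrnp200, a helicase of the spliceosome, spanned only 1.14-fold, so a high r here need not mean a large difference. With Arntl, the highest were Usp26, Trim59, Rimbp2, Prkci and Atxn7l3b (r from 0.98 to 1.00), and the lowest Gpr146, Bag6, Ppp1r15a, Got1 and Mknk2 (r from -0.99 to -0.97). With 9702 genes ranked over only 6 rats the ends of the ranking hold values near 1 and -1, so these names are a description.

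Per1 and some other members also respond to glucocorticoids and to acute stimulation, so genes of those responses were read in the same rats. Fkbp5, a glucocorticoid-induced co-chaperone, was at 109, 33.7 and 168 CPM in rats 61, 71 and 88 and at 84.7, 43.2 and 120 CPM in rats 64, 67 and 69. The 6 rats fell in the same order as for Per1, and Fkbp5 had r = 0.85 with Dbp (place 88). Tsc22d3 (GILZ), another such gene, was at 171, 101 and 196 CPM in the AL rats and 78.8, 92.7 and 121 CPM in the HD rats, and had r = 0.50 with Dbp. Sgk1, a kinase induced by glucocorticoids and aldosterone, was highest in rat 64 at 423 CPM and had r = -0.04 with Dbp. Whether glucocorticoid level moved the clock members was not tested.

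Of the 8 tested glucocorticoid-responsive genes, 2 were higher and 6 lower in the HD group, and the median log2 difference was -0.43 beside 0.0067 over all tested genes. Klf9 (0.66, edgeR adjusted p = 0.441) and Tsc22d3 (-0.68, edgeR adjusted p = 0.440) had an unadjusted p below 0.05, as did 10.6% of all tested genes, and 0 of the 8 passed the adjusted threshold in edgeR or DESeq2. Of the 7 tested immediate early genes, 5 were higher and 2 lower, with a median of 0.13. Nr4a1, an orphan receptor induced within minutes of a stimulus, had a log2 difference of -1.27 (SE 0.48, edgeR adjusted p = 0.426) with an unadjusted p of 0.0318, the only one of the 7 below 0.05. None of the 7 passed the adjusted threshold in edgeR or DESeq2. Fos was lowest in rat 71 (4.54 CPM) and highest in rat 67 (22.8 CPM), and Egr1 was lowest in rat 71 (11.0 CPM) and highest in rat 64 (83.5 CPM). Fos (r = 0.26) and Egr1 (r = 0.26) did not follow Dbp, whereas Dusp1, a phosphatase of the same list, did (r = 0.90, place 49).

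Of 6 kidney genes known as rhythmic or as linked to Per1, 3 were higher and 3 lower in the HD group, with a median of -0.0062 and 0 past the adjusted threshold in edgeR or DESeq2. Scnn1a, the alpha subunit of the epithelial sodium channel and a known Per1 target, was at 36.4, 35.6 and 56.6 CPM in rats 61, 71 and 88 and at 45.1, 32.9 and 74.0 CPM in rats 64, 67 and 69. It was highest in rats 69 and 88, as Dbp and Nr1d1 were, with r = 0.83 (place 113). Slc9a3, the sodium-proton exchanger NHE3 of the proximal tubule, was at 119, 116 and 139 CPM in the AL rats and 58.9, 72.1 and 106 CPM in the HD rats. These groups did not overlap, as in 14.3% of all tested genes, and the log2 difference was -0.66 (SE 0.21, edgeR adjusted p = 0.406), while r with Dbp was 0.23. Avpr2, the vasopressin receptor of the collecting duct, had a log2 difference of -0.54 (SE 0.19, edgeR adjusted p = 0.409) and r = -0.19 with Dbp. Its groups did not overlap either, so this held for 2 of the 6 genes. Slc9a3 and Avpr2 were the 2 genes of these 6 with an unadjusted p below 0.05, a value that 10.6% of all tested genes reached.

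**Figure D5:**
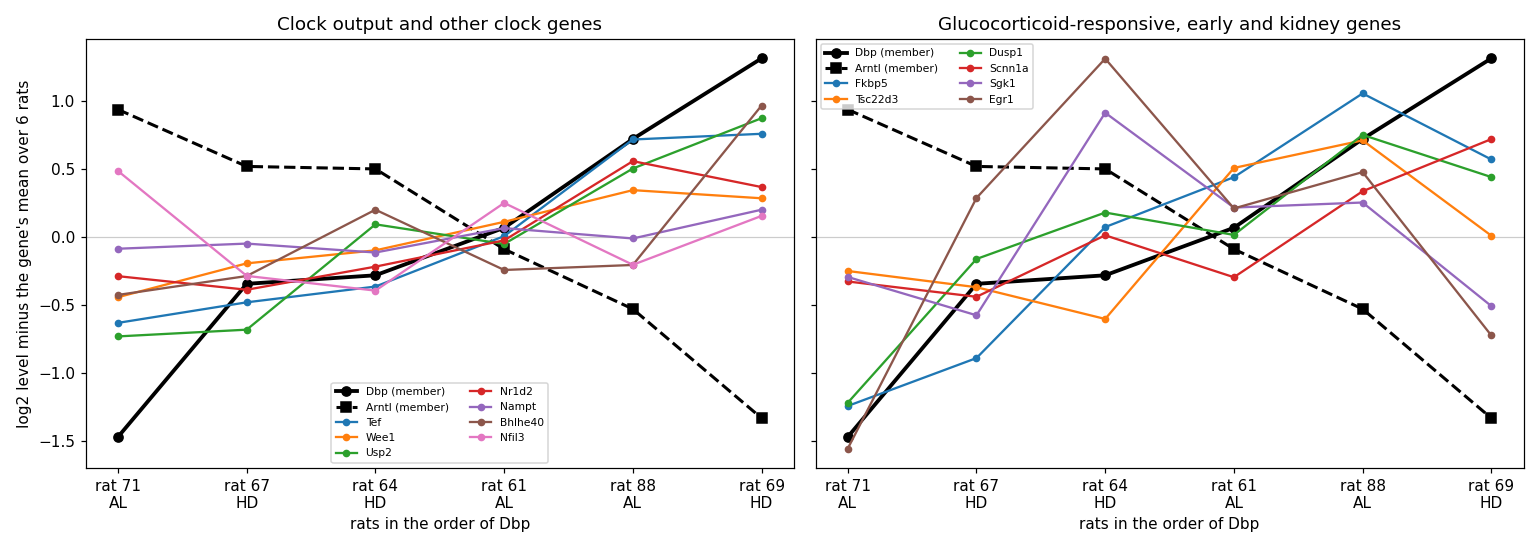
Deviation from the gene's mean over 6 rats (log2 scale) with the rats ordered by Dbp, for Dbp and Arntl (black) beside other clock genes (left) and glucocorticoid-responsive, immediate early and kidney genes (right). Tef, Wee1, Usp2, Nr1d2, Fkbp5, Dusp1 and Scnn1a end higher in rats 88 and 69 than in rat 71, while Nfil3, Sgk1 and Egr1 do not keep the order of Dbp.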

How the data were processed

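Kidney RNA of 6 rats was sequenced (single-end, unstranded TruSeq kit), and each rat was a library of its own. The authors deposited an expected count (estimated count, not normalized) for every transcript, with a posterior mean of that count, made by RSEM 1.1.15 on genome build rn5 per the submitters' processing notes. The authors also deposited TPM values, scaled by RSEM to transcript length and library size. FPKM values were not used. Groups followed the diet in the labels.

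Expected counts were summed per gene and rounded to whole numbers, and genes with at least 30 counts in at least 1 rat were kept (11553). HD was compared with AL by edgeR 4.0.16 in R 4.3.3 (TMM, quasi-likelihood test, Benjamini-Hochberg adjustment over all kept genes, threshold 0.05), and the test was checked on simulated counts. Total counts of 12499945 to 30466461 set the precision of low genes. Exact permutation tests used log2 of CPM plus 0.5, over 10 divisions of the rats or 720 pairings. Python 3.11.15, numpy 2.4.6, pandas 2.3.3, scipy 1.17.1 and matplotlib 3.10.9 were used.

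The members and gene lists were chosen with earlier results of these data known. Named genes were all 10 members, 8 further clock genes where listed, 7 named genes of the other lists, any list gene with an unadjusted p below 0.05, and the 5 genes most and least like Dbp and Arntl. Others are named as examples of likeness, after their values were seen. List genes not analysed here included Bhlhe41, Hlf, Ciart, Fbxl21 and Fosb. Alternatives were DESeq2 1.42.0, RLE factors, library size alone, a minimum of 10 counts in every rat, no filter, posterior mean counts, TPM, a pseudocount of 2 and leaving out each rat.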

Additional observations from a re-analysis of the deposited data

How the results depend on the processing

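No member passed the adjusted threshold under any alternative run, with edgeR or DESeq2 adjusted p between 0.421 and 0.998 with all 6 rats and between 0.310 and 1.00 when 1 rat was left out. With 1 rat left out, the log2 fold change crossed 0 for 7 members. It ranged from -0.42 to 0.41 for Arntl, from -0.43 to 0.15 for Per1, from -0.66 to 0.00098 for Per2, from -0.78 to 0.085 for Per3, from -0.043 to 0.29 for Cry1, from -0.40 to 0.21 for Cry2 and from -0.34 to 0.97 for Dbp. The number of members at an unadjusted p below 0.05 was 0 with all rats, 1 with DESeq2 (Npas2) and from 0 to 2 with a rat left out (Clock and Npas2 without rat 61, Npas2 and Nr1d1 without rat 88). Over all genes the number was 1325 of 11553 with DESeq2, 1722 of 11550 without rat 61 and 606 of 11531 without rat 88. Members whose groups did not overlap numbered from 0 to 1 (Clock without rat 61, Nr1d1 without rat 88). Groups of 2 and 3 rats separate more readily than 3 and 3, and the share of all tested genes was not taken for them. The cases of Clock and Nr1d1 are therefore a description. Pairs past the adjusted threshold fell from 2 to 0 in TPM and to 0 with library size alone, where r of Arntl with Dbp was -0.98 in both. With library size alone the median difference over all genes went from 0.0067 to -0.074. The causes of these differences were not tested. Groups of 3 rats limit what can be called, and Clock, at 28 counts in rat 61, is limited by depth.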
